A study of Mus musculus with 16 samples.

Results

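The transcripts described here are those of 7 genes of the mouse olfactory mucosa: S100a5, Lrrc3b, Pcp4l1, Cidea, Mustn1, Rasgrp4 and H2bc21, the last formerly called Hist2h2be. They were chosen as a list of symbols, which was matched to the platform annotation of the array. All 7 had a probe set, among 19505 named genes and 22206 probe sets tested. The working name of the list was activity genes that move with S100a5. Of the 7, only S100a5, Lrrc3b, Pcp4l1 and Cidea were higher in the sorted GFP+ cells, while H2bc21, with a bright signal, hardly differed. Mustn1 lay below background and Rasgrp4 was measured less firmly, so their values say little about that name. None of the 7 passed the test for 2-hexanone. As S100a5 did not pass either, that test cannot tell which genes move with it.

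A sensory neuron of the nose uses 1 odorant receptor gene, and its firing changes the transcription of a set of other genes. S100a5 codes for a small calcium-binding protein of the EF-hand kind, and its transcript in these neurons follows their recent activity. Pcp4l1 codes for a relative of PEP-19, a small protein that binds calmodulin, and Lrrc3b for a membrane protein with leucine-rich repeats. H2bc21 codes for an H2B histone variant of olfactory neurons whose level is known to differ with neuronal activity. Cidea is a lipid droplet protein best known from brown fat, Mustn1 a small nuclear protein of muscle and skeleton, and Rasgrp4 a guanine nucleotide exchange factor for Ras best known from mast cells.

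The animals were 24 S100a5-tauGFP mice of both sexes, aged 7 to 12 weeks, in which the S100a5 promoter drives a green fluorescent reporter. Each spent 40 h alone in a chamber ventilated at 3.1 L per min, and from 26 h on received pulses of 10 s, 1 every 20 min. Vehicle mice received filtered air and odor mice received 2-hexanone, a small ketone. Dissociated mucosa of 3 mice made a pool, and fluorescence sorting divided each of 8 pools into GFP+ and GFP- cells. The 4 groups are thus vehicle GFP+, vehicle GFP-, odor GFP+ and odor GFP-, each with 4 pools, on 16 Clariom S arrays. All 4 carry the reporter, so no group without it was compared, and the strain background and odorant dose were not stated in the sources used here. The reporter marks cells with a strong S100a5 promoter, whichever odorant or other stimulus drove it.

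Values are the log2 signals that the authors deposited. The highest value, 19.81, exceeds the range of a 16-bit scanner, so the scale carries an unstated transformation, and each fold below is on that scale. Array medians lay at 5.70 to 5.76 (GFP+) or 6.06 to 6.12 (GFP-), and precision is limited by the small number of arrays. The background floor of an array, the highest of 23 antigenomic bins, lay at 6.16 to 7.33, and the 95th percentile of its negative controls at 8.53 to 9.47. S100a5, Lrrc3b, Pcp4l1, Cidea, Rasgrp4 and H2bc21 lay above the floor on all 16 arrays, while Mustn1 lay below it on all 16. Each array held the mRNA of many cells, so fewer cells of a type and less RNA per cell cannot be told apart.

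RefSeq promoters of assembly GRCm38.p6 were in the sequence table for 4 of the 7 genes. Those of 3 genes that rose in GFP+ cells are shown because these genes share that direction. Each line gives the 250 bases before the gene's start, 5′ to 3′ on the gene's strand, with the letters ATTGG, the reverse of CCAAT, in capitals.
S100a5: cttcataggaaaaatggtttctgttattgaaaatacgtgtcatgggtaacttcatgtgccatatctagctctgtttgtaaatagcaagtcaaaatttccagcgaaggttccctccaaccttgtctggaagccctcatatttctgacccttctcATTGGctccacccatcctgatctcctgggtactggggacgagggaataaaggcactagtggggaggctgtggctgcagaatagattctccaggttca
Pcp4l1: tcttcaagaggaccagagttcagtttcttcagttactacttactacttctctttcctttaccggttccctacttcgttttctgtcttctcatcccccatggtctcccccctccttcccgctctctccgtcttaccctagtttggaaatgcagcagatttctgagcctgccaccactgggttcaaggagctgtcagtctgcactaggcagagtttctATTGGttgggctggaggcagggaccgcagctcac
Lrrc3b: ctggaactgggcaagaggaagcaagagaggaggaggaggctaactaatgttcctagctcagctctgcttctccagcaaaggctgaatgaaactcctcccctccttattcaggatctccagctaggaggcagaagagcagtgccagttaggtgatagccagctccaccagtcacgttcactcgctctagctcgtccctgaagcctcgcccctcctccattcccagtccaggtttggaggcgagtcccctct
The S100a5 stretch lies at chr3:90608272-90608521 on the plus strand, the Pcp4l1 stretch at chr1:171196269-171196518 on the minus strand and the Lrrc3b stretch at chr14:15438988-15439237 on the minus strand. Their GC content was 46.0%, 51.6% and 56.0%, around the median of 52.4% over all promoters of the table.

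Motifs were searched on both strands in windows of 300 bases that reach 50 bases past the start. CCAAT occurred in reverse in S100a5 at bases -97 to -93 from the start and in Pcp4l1 at -34 to -30, and 37.4% of 32544 promoters hold it. E-box letters (CANNTG) occurred in S100a5 at -198 to -193 and at 26 to 31, against 72.3% of promoters with at least 1. TATAAA occurred in Pcp4l1 only past the annotated start, at 1 to 6, against 13.6% of promoters. None of the 4 windows held the cyclic AMP response element TGACGTCA (in 1.80% of promoters) or its shorter form TGACG (in 20.9%, a count that includes the longer form). None held the AP-1 letters TGANTCA (in 7.79%), the Ebf core CCCNNGGG (in 13.7%), the homeodomain core TAATTA (in 5.29%) or the Egr site GCGTGGGCG (in 0.618%) either. The Lrrc3b window held none of the motifs searched.

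S100a5 was the gene that the sort was built on, so its direction follows from the sort. In vehicle pools 1 to 4 its log2 signal was 17.02, 16.27, 16.25 and 16.11 in GFP+ cells and 15.60, 15.06, 14.94 and 14.54 in GFP- cells. In odor pools 1 to 4 it was 16.92, 16.83, 16.17 and 16.98 in GFP+ cells and 15.18, 15.13, 14.89 and 15.23 in GFP- cells. The fractions did not overlap in either treatment, although GFP- cells still gave a bright signal. The GFP+ mean was higher by 1.38 ± 0.25 (SE) in vehicle (limma, adjusted p = 0.000514) and by 1.61 ± 0.25 in odor (adjusted p = 9.83e-05), or 2.60-fold and 3.06-fold. The position of the reporter relative to the array's S100a5 probes was not stated in the sources used here.

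**Figure D1:**
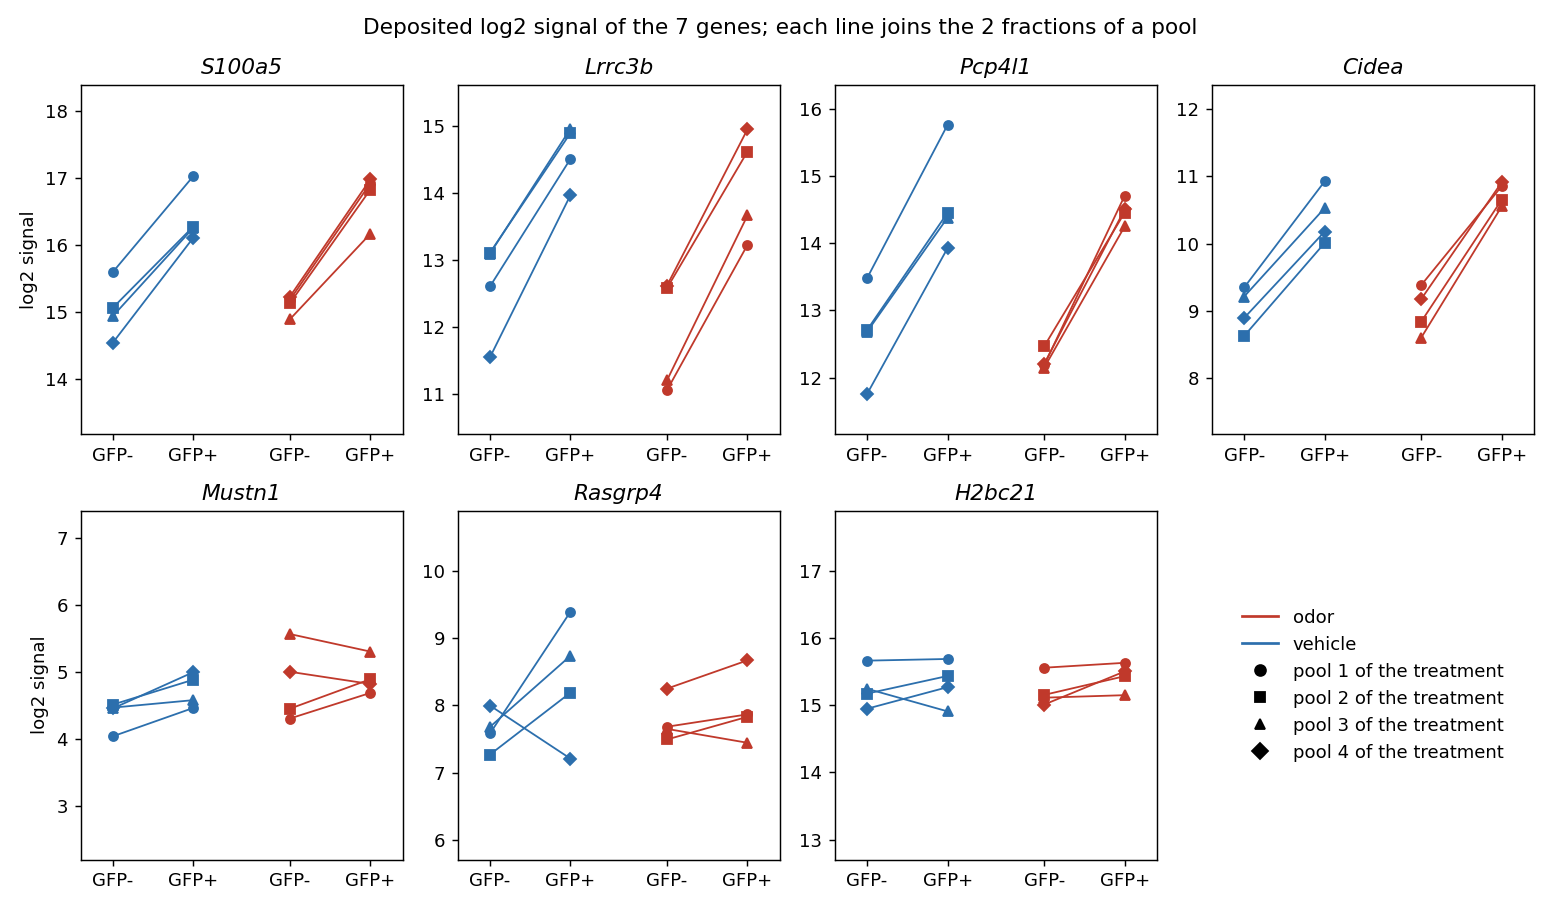
Deposited log2 signal (vertical axis, 5.2 log2 units in every panel) of the 7 genes in GFP- and GFP+ cells of 4 vehicle pools (blue) and 4 odor pools (red); each line joins the fractions of a pool. The lines of S100a5, Lrrc3b, Pcp4l1 and Cidea climb in all 8 pools, those of H2bc21 are nearly level, and Mustn1 lies under the background floor throughout.

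Among the 7 genes, Lrrc3b and Pcp4l1 had the widest measured gaps between the fractions. Lrrc3b stood at 14.50, 14.89, 14.95 and 13.96 in GFP+ cells of vehicle pools 1 to 4 and at 12.60, 13.11, 13.09 and 11.55 in their GFP- cells. In odor pools 1 to 4 it stood at 13.22, 14.61, 13.66 and 14.95 in GFP+ cells and at 11.06, 12.58, 11.21 and 12.62 in GFP- cells. No GFP- array reached the lowest GFP+ array, but the odor pools ran from 13.22 to 14.95 within GFP+ cells. The GFP+ mean was higher by 1.99 ± 0.44 (SE) in vehicle (limma, adjusted p = 0.00367) and by 2.25 ± 0.44 in odor (adjusted p = 0.00127).

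Pcp4l1 stood at 15.76, 14.46, 14.38 and 13.93 in vehicle GFP+ cells and at 13.48, 12.71, 12.68 and 11.76 in vehicle GFP- cells. In odor it stood at 14.71, 14.46, 14.25 and 14.50 in GFP+ cells and at 12.18, 12.46, 12.15 and 12.20 in GFP- cells. Again the fractions did not overlap, and the odor pools lay close together, with SDs of 0.19 and 0.15 against 0.79 and 0.71 in vehicle. The GFP+ mean was higher by 1.98 ± 0.34 (SE) in vehicle (limma, adjusted p = 0.000356) and by 2.23 ± 0.34 in odor (adjusted p = 9.73e-05).

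Cidea rose with them, nearer to background. Its log2 signal was 10.93, 10.01, 10.53 and 10.18 in vehicle GFP+ cells and 9.35, 8.62, 9.21 and 8.89 in vehicle GFP- cells. In odor pools it was 10.86, 10.65, 10.55 and 10.91 in GFP+ cells and 9.38, 8.84, 8.60 and 9.17 in GFP- cells. Every GFP+ array lay above every GFP- array and above the 95th percentile of its own negative controls, which 2 of 4 vehicle and 1 of 4 odor GFP- arrays also passed. The GFP+ mean was higher by 1.39 ± 0.23 (SE) in vehicle (limma, adjusted p = 0.000208) and by 1.75 ± 0.23 in odor (adjusted p = 1.66e-05). The adipocyte markers Adipoq, Plin1, Fabp4, Ucp1 and Lep lay under the floor on all 16 arrays.

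H2bc21 gave a bright signal that hardly differed between the fractions. In vehicle pools 1 to 4 it was 15.69, 15.44, 14.91 and 15.27 in GFP+ cells and 15.67, 15.17, 15.25 and 14.95 in GFP- cells. In odor pools it was 15.63, 15.43, 15.15 and 15.50 in GFP+ cells and 15.56, 15.15, 15.11 and 15.01 in GFP- cells. The ranges overlapped in both treatments. The difference was 0.07 ± 0.21 (SE) in vehicle (limma, adjusted p = 0.871, 95% interval -0.36 to 0.50) and 0.22 ± 0.21 in odor (adjusted p = 0.539, -0.21 to 0.65). Over both treatments it was 0.14 with an interval of -0.16 to 0.45. H2B genes are near-identical in sequence, so how much of this signal comes from other H2B transcripts was not tested.

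Rasgrp4 was measured less firmly. In vehicle its log2 signal was 9.40, 8.19, 8.74 and 7.21 in GFP+ cells of pools 1 to 4 and 7.58, 7.27, 7.68 and 8.0 in GFP- cells. In odor it was 7.87, 7.83, 7.44 and 8.67 in GFP+ cells and 7.68, 7.49, 7.65 and 8.25 in GFP- cells. Only 1 of the 16 arrays passed the 95th percentile of its negative controls, and vehicle pool 4 had less Rasgrp4 in GFP+ than in GFP- cells, unlike the other vehicle pools. The difference was 0.75 ± 0.36 (SE) in vehicle (limma, adjusted p = 0.186) and 0.18 ± 0.36 in odor (adjusted p = 0.798). Without vehicle pool 4 it was 1.27 in vehicle (limma, adjusted p = 0.0169) and 0.72 over both treatments (adjusted p = 0.0243). Leaving out any other pool gave no pass. Values then fell as low as 0.40 in vehicle and 0.29 over both treatments, so the call depends on the pools kept. Of 9 mast cell markers, Kit and Hdc lay below the floor on all GFP+ arrays and above it on all 8 GFP- arrays, and Cma1, Mcpt4, Tpsb2, Tpsab1, Fcer1a and Ms4a2 lay below it on all 16.

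Mustn1 ranged from 4.05 to 5.57 over the 16 arrays, below the floor on each, so it has no fold. Of the 10 muscle and skeletal markers listed, 9 also lay below the floor on all 16 arrays. Mustn1's measured difference did not pass the test over both treatments (0.23 ± 0.17 SE, limma, adjusted p = 0.356).

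Counted together, 4 of the 7 genes were higher in GFP+ cells and 0 lower in vehicle, where 5.83% of all probe sets were higher and 9.86% lower. The same 4 were higher in odor, against 5.29% of probe sets (9.56% were lower), and over both treatments, against 13.4% (13% were lower). S100a5 is among these 4 by the sort itself, and the list was chosen with earlier results of these data known. The counts are thus a description only. Over both treatments the differences were 1.50 ± 0.18 (SE) for S100a5, 2.12 ± 0.31 for Lrrc3b, 2.10 ± 0.24 for Pcp4l1 and 1.57 ± 0.16 for Cidea, with limma adjusted p from 4.47e-07 to 3.92e-05. The median difference was 1.50 over the 7 genes and 0.15 over all probe sets. Centring each array on its median moved the median of all probe sets to 0.51. Then 74.7% of all probe sets passed, among them Rasgrp4, Mustn1 and H2bc21 at 0.82, 0.58 and 0.50, of which H2bc21 lay at that median.

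The fractions of a pool come from the same mice, so the difference within each pool was also taken. S100a5 differed by 1.43, 1.21, 1.32 and 1.56 in vehicle pools 1 to 4 and by 1.74, 1.69, 1.27 and 1.75 in odor pools. Lrrc3b differed by 1.90, 1.78, 1.86 and 2.42 in vehicle and by 2.16, 2.03, 2.46 and 2.33 in odor. Both genes were thus higher in GFP+ cells of all 8 pools. Pcp4l1 differed by 2.28, 1.75, 1.70 and 2.17 in vehicle and by 2.52, 1.99, 2.11 and 2.30 in odor. Cidea differed by 1.58, 1.39, 1.32 and 1.29 in vehicle and by 1.47, 1.82, 1.96 and 1.74 in odor. For each of these 4 genes the exact sign-flip permutation test over the 8 pools, two-sided, gave p = 0.0078, the smallest that 8 pools allow. For S100a5 the direction was set by the sort. The other genes were listed with earlier results of these data known, and this test was not run over all probe sets. Its p-values are thus a description of these genes only.

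The other 3 genes varied in sign. H2bc21 was higher in GFP+ cells of 7 of 8 pools, by a mean of 0.14 ± 0.25 (SD, n = 8, exact p = 0.141). Rasgrp4 was higher in 6 of 8 pools, from -0.79 in vehicle pool 4 to 1.81 in vehicle pool 1 (mean 0.47 ± 0.80 SD, n = 8, exact p = 0.148). Mustn1 was higher in 6 of 8 pools, all under background (exact p = 0.0859).

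**Figure D2:**
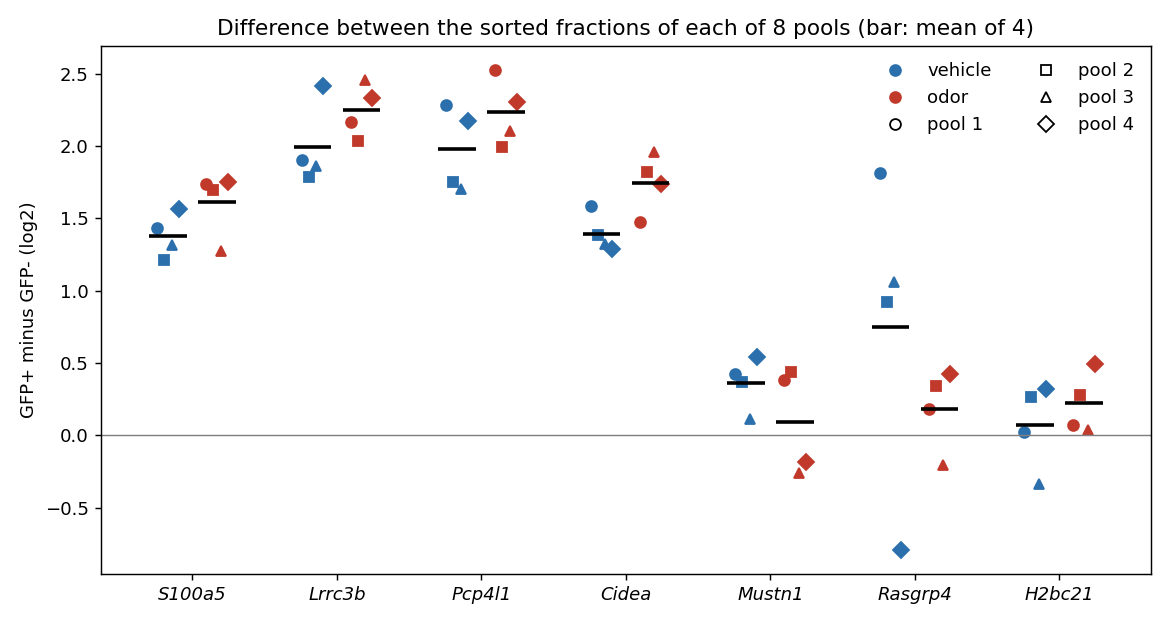
GFP+ minus GFP- log2 signal (vertical axis) of each gene in 4 vehicle (blue) and 4 odor (red) pools, with the mean of 4 as a bar. Marker shapes are pools 1 to 4 of a treatment, which the labels link across treatments by number only. S100a5, Lrrc3b, Pcp4l1 and Cidea lie between 1.21 and 2.52 in all 8 pools, and Rasgrp4 spreads from -0.79 to 1.81.

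Between pools of 1 treatment, the largest deviations of Lrrc3b, Pcp4l1, S100a5 and Cidea from their group means appeared in both fractions of the pool. Those of Rasgrp4 did not. They were -1.18 in GFP+ and 0.37 in GFP- cells of vehicle pool 4, and 1.01 and -0.05 in vehicle pool 1. Vehicle pool 4 held less Lrrc3b than its group mean in GFP+ cells, by -0.61, and in GFP- cells, by -1.04. Odor pool 1 lay at -0.89 and -0.81 from the Lrrc3b means, and vehicle pool 1 at 1.13 and 0.82 from the Pcp4l1 means. Both fractions of a pool deviated in the same direction in 8 of 8 pools for Cidea and in 7 of 8 for Lrrc3b and for S100a5. For Pcp4l1 they did in 3 of 8, since its pools other than vehicle pools 1 and 4 deviated little, by -0.25 to 0.23. The SD of Lrrc3b between pools of a treatment was 0.65 in GFP+ cells, 0.79 in GFP- cells and 0.24 for the difference within a pool. Independent fractions would give an SD of 1.03 for that difference, so the ratio was 0.235. The ratio was 0.347 for Pcp4l1, 0.373 for Cidea, 0.378 for S100a5, 0.573 for Mustn1, 0.672 for H2bc21 and 0.986 for Rasgrp4. Over all probe sets its median was 0.911, and 4.75% lay below 0.5, as 4 of these 7 genes did.

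The pools did not rank alike for every gene. Vehicle pool 1 was highest in S100a5, Pcp4l1 and Cidea among vehicle GFP+ arrays, but vehicle pool 3 was highest in Lrrc3b. Among odor pools Lrrc3b was higher in pools 2 and 4 than in pools 1 and 3 in both fractions, a pattern that S100a5, Pcp4l1 and Cidea did not share. The Y-linked gene Eif2s3y, chosen after its values were seen, lay at 7.10 to 8.68 in pools 1 and 3 of either treatment and at 9.39 to 11.12 in pools 2 and 4. Of the other Y-linked genes looked at, Uty lay at 6.79 to 8.47 and at 8.86 to 10.67 in these pools. Kdm5d lay at 4.77 to 6.33 and at 5.97 to 7.87, so its ranges overlapped. In vehicle the lowest Lrrc3b pool was pool 4, and the part that the sexes of the mice had in the Lrrc3b values was not tested.

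**Figure D3:**
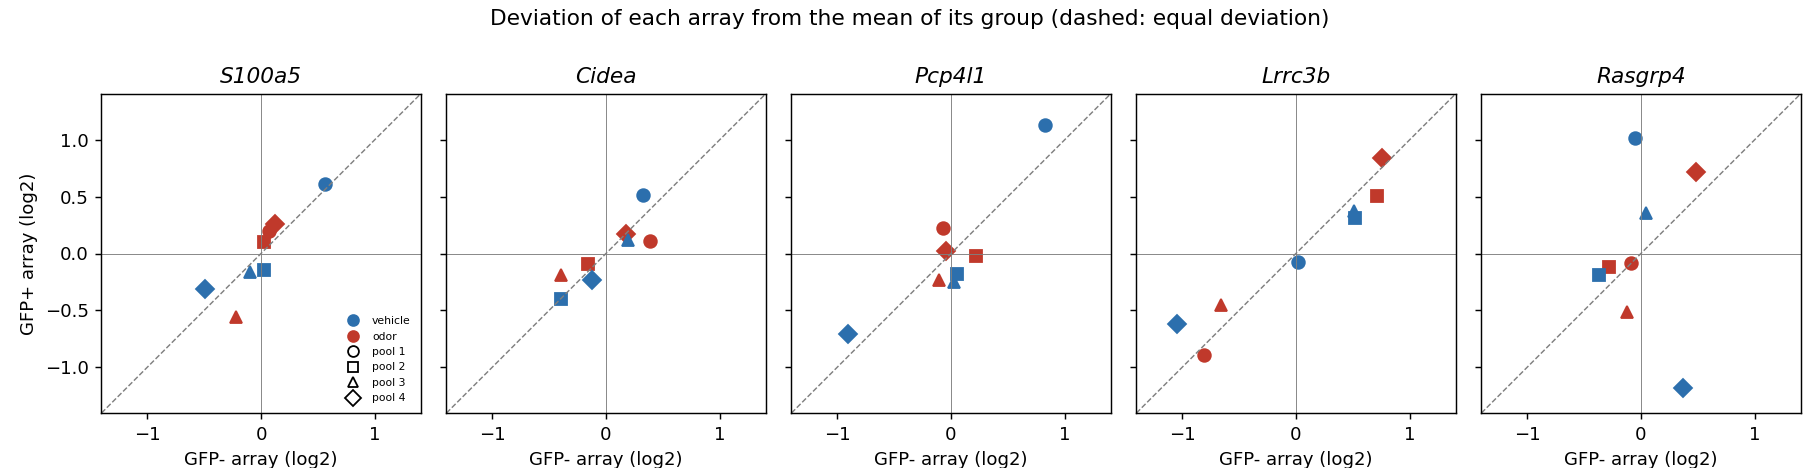
Deviation of each array from its group mean (log2), GFP- array on the horizontal and GFP+ array on the vertical axis, for 5 genes in 4 vehicle (blue) and 4 odor (red) pools; the dashed line marks equal deviation. The larger deviations of S100a5, Cidea, Pcp4l1 and Lrrc3b have the same sign on both axes but not always the same size. Lrrc3b runs from -1.04 to 0.83, while Rasgrp4 in vehicle pools 1 and 4 deviates in GFP+ cells by 1.01 and -1.18.

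Exposure to 2-hexanone asked whether the added odorant changed these transcripts within a fraction. In GFP+ cells none of the 7 genes passed (limma, 0 of 7; 0.00901% of probe sets, 2 in all, did), and none had an unadjusted p under 0.05, the lowest being 0.165 for Cidea. Group means in order ran from 16.72 in odor GFP+ to 16.42 in vehicle GFP+, 15.11 in odor GFP- and 15.04 in vehicle GFP- for S100a5. Its treatments differed by less than the spread between pools in either fraction, and only the step between the fractions passed. The odor effect in GFP+ cells was 0.31 for S100a5 (95% interval -0.22 to 0.83) and 0.33 for Cidea (-0.15 to 0.82). It was -0.47 for Lrrc3b (-1.40 to 0.47), -0.15 for Pcp4l1 (-0.88 to 0.57), -0.43 for Rasgrp4 (-1.19 to 0.33) and 0.10 for H2bc21 (-0.33 to 0.54). These intervals leave room for an effect of either sign in each gene. The Pcp4l1 value turned to 0.22 without vehicle pool 1, the highest Pcp4l1 pool, and the H2bc21 value to -0.04 without vehicle pool 3.

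In GFP- cells again 0 of 7 genes passed (limma; 0% of probe sets, with 547 at an unadjusted p under 0.05), and 0 of the 7 had an unadjusted p under 0.05. Lrrc3b was measured lower with odor by a difference of -0.72 (95% interval -1.66 to 0.21), and Pcp4l1 by -0.41 (-1.13 to 0.31). Both fractions thus had lower Lrrc3b and Pcp4l1 means with odor, and both differences lay within the spread between pools. S100a5 differed by 0.07 (-0.45 to 0.60), Cidea by -0.02 (-0.50 to 0.46) and H2bc21 by -0.05 (-0.48 to 0.38). Exact permutation tests of 4 against 4 pools, two-sided, gave p from 0.2 to 0.886 for the 7 genes in GFP+ cells and from 0.2 to 0.857 in GFP- cells.

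The gap between the fractions was set against itself in the 2 treatments. For S100a5 it was 0.23 wider in odor (95% interval -0.51 to 0.97), for Lrrc3b 0.26 (-1.07 to 1.58), for Pcp4l1 0.25 (-0.77 to 1.28) and for Cidea 0.35 (-0.33 to 1.04). All 4 gaps, from the same pools, were thus measured wider in odor, but 0 of 7 genes passed by limma. Over all probe sets 0.00901% did, and 650 had an unadjusted p under 0.05. These limma intervals take the fractions of a pool as independent, so for these 4 genes they are wider than the pool differences would give. With the pool as a fixed block, 0 of 7 genes and 0 of 22206 probe sets passed. Cidea came nearest in the pool differences, with 1.47 to 1.96 in odor against 1.29 to 1.58 in vehicle. Only odor pool 1 lay inside the vehicle range (exact permutation test, two-sided, p = 0.0571, where 0.0286 is the smallest possible). The same exact permutation test gave p = 0.143 for S100a5, 0.2 for Lrrc3b and 0.229 for Pcp4l1, none adjusted for the 7 genes tested. The Rasgrp4 gap was measured narrower in odor, by a difference of -0.57 (-1.64 to 0.51), which was -1.08 without vehicle pool 4 and -0.21 without vehicle pool 1. The Mustn1 gap, under background, differed by -0.27 and the H2bc21 gap by 0.15, against a median of 0.0017 over all probe sets.

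**Figure D4:**
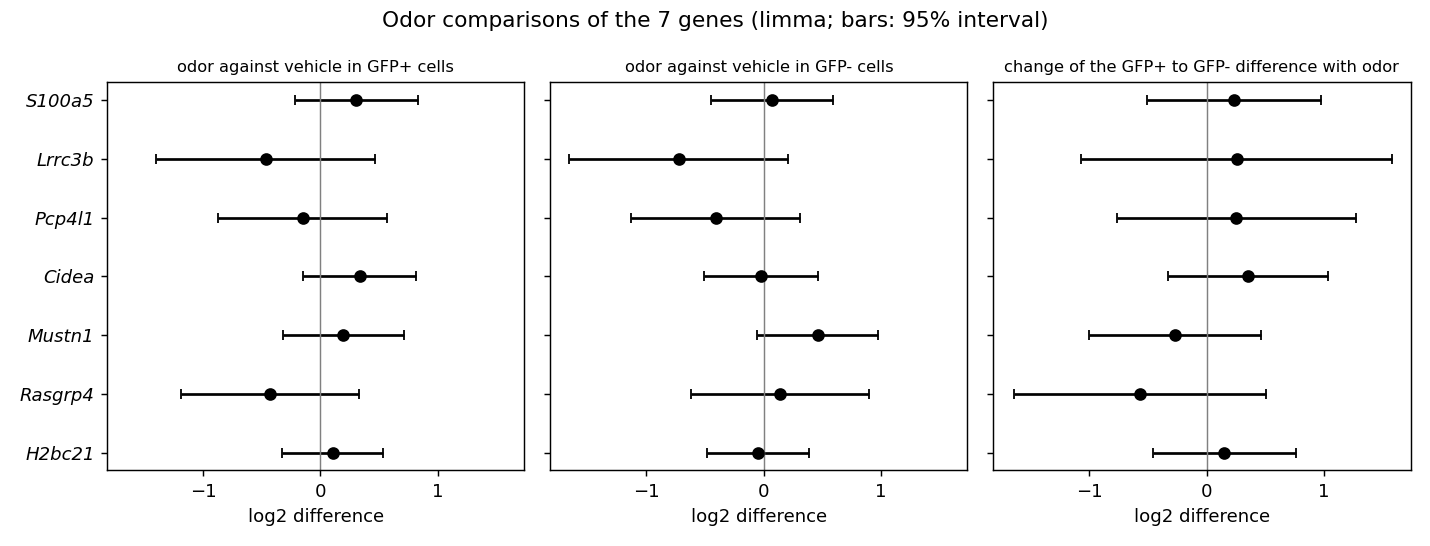
Log2 difference (horizontal axis) of the 7 genes for odor against vehicle in GFP+ cells, in GFP- cells, and for the change of the gap between the fractions; points are limma estimates over 4 pools a group and bars their 95% intervals. Every interval includes 0, and the widest belong to Lrrc3b. Intervals of the change take the fractions of a pool as independent, which widens them for S100a5, Lrrc3b, Pcp4l1 and Cidea.

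Among other named genes, the profile most like that of S100a5 over the 16 arrays belonged to Syn2, a synapsin of synaptic vesicles. Likeness was the root mean square difference between profiles after each gene was centred on its own mean, over 9164 named genes whose mean lay above the mean floor. Syn2 differed by 0.225, and Cidea ranked second at 0.250. Clip4 (0.274), Rgs7 (0.298), Olfr1056 (0.310), Olfr1062 (0.312), Inpp5f (0.312), Mapk4 (0.319) and Slc6a17 (0.327) followed. Rgs7 is a regulator of G-protein signalling, and Olfr1056 and Olfr1062 are odorant receptors. Pcp4l1 ranked 106 (0.456), H2bc21 2764 (0.710), Rasgrp4 3119 (0.725) and Lrrc3b 4540 (0.782). Lrrc3b was thus far from S100a5 on this measure although both were higher in GFP+ cells. The measure is not scaled, so gaps or swings between pools of another size than those of S100a5 also lower a rank. H2bc21 and Rasgrp4 ranked nearer than Lrrc3b although neither passed between the fractions. The GFP+ minus GFP- difference of Syn2 was 1.22 ± 0.16 (SE), a description only, since the gene was chosen for this profile.

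Relatives of the 7 genes were counted from lists, over both treatments. Among 15 other S100 family genes, 3 were higher in GFP+ cells (S100a3, S100a13 and S100b) and 6 lower, with a median of -0.10 against 0.15 for all probe sets. S100a3 and S100b lay below the floor on all 16 arrays. S100a8, a calcium-binding protein of neutrophils, was at least 415-fold lower in GFP+ cells, and S100a11 at least 91.0-fold lower. S100a9 lay above the floor on 1 of 8 GFP+ arrays and at a mean of 14.76 in GFP- cells. S100a13 lay above the floor on 6 of 8 GFP+ and 4 of 8 GFP- arrays. The largest differences in the family thus ran opposite to that of S100a5. Its chromosomal neighbours S100a4 and S100a6 lay below the floor on all 8 GFP+ arrays and above it on 4 and 1 of 8 GFP- arrays.

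Of the relatives of Pcp4l1, Gap43, a growth cone protein and marker of immature neurons, was lower in GFP+ cells by a difference of -2.49 ± 0.18 (SE, limma, adjusted p = 4.44e-09), and Nrgn and Pcp4 stayed under the floor on all 16 arrays. Both Lrrc3 relatives did too. Of 4 other genes of the CIDE family 0 passed, with Cidec under the floor and Dffa at 0.18. The 3 other RasGRP genes were lower in GFP+ cells, opposite in sign to Rasgrp4. Rasgrp1 lay above the floor on 7 of 8 GFP- arrays and on 0 of 8 GFP+ arrays, Rasgrp2 on 2 and 0, and Rasgrp3 on none.

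Of 28 listed histone genes, mostly H2B genes and neighbours of H2bc21 but also others such as H2ax, 24 had a probe set. Of these, 19 were lower and 0 higher in GFP+ cells (median -1.33 against 0.15 for all probe sets). The neighbours H3c14 and H3c15, both counted among the 19, had identical values. H2bc12 was lower by a difference of -2.38 ± 0.25 (SE), H2bc7 by -2.13 ± 0.28 and H2ax by -2.10 ± 0.24, while H2bc3 was at least 2.65-fold lower. H2bc4 (0.26) and H2bc23 (-0.40) did not pass, as H2bc21 did not. The direction of the 3 named differences held when arrays were centred, where 17 relatives were lower and 3 higher. The proliferation and progenitor markers listed, of which 3 of 6 were lower in GFP+ cells, had a mean log2 of 3.71 to 4.32 on GFP+ and 5.34 to 5.97 on GFP- arrays. Neurog1, Krt5, Krt14 and Trp63 lay under the floor on all 16 arrays. The proliferation genes Mki67 and Top2a lay above it on all 8 GFP- arrays and were at least 34.8-fold and 2.34-fold lower in GFP+ cells. The part of dividing cells in the histone values was not tested.

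**Figure D5:**
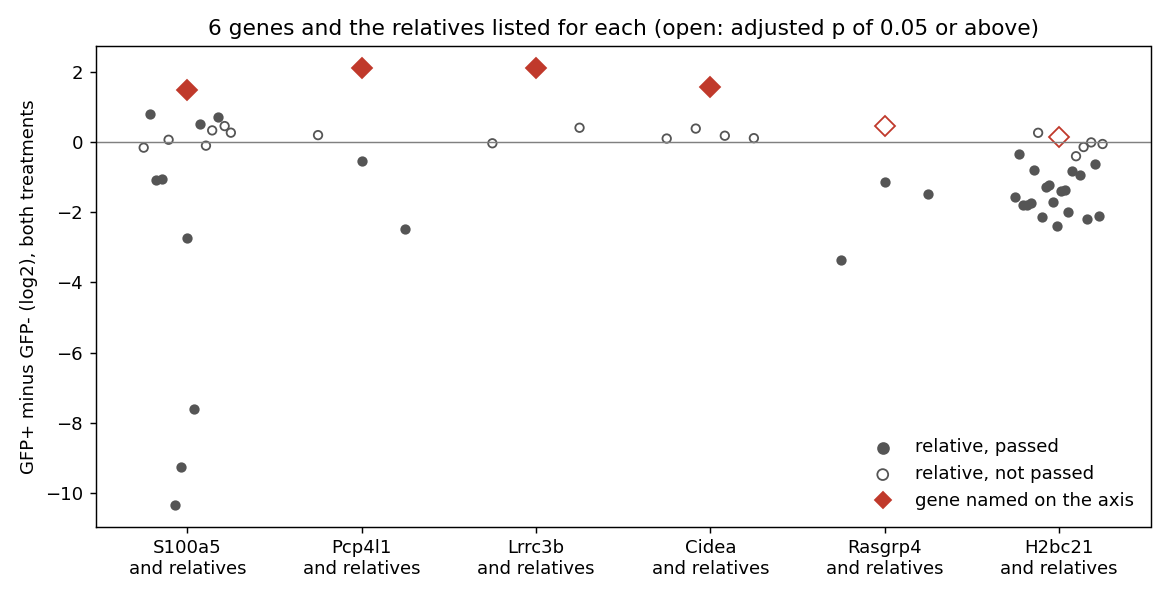
GFP+ minus GFP- log2 difference over both treatments (vertical axis, limma) for 6 genes (diamonds) and the relatives listed for each (circles); filled symbols have an adjusted p below 0.05, and values of genes under the background floor are drawn as measured. S100a5, Pcp4l1, Lrrc3b and Cidea lie above their relatives, and most histone relatives of H2bc21 lie below 0.

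Other genes of olfactory neurons linked to activity moved both ways. Of 12 listed, 10 had a probe set; 4 were higher and 2 lower in GFP+ cells, with a median of 0.15, the same as over all probe sets. Pcdh10, a protocadherin, was higher by 1.83 ± 0.35 (SE, limma, adjusted p = 0.000624) and Epha5, an ephrin receptor, by 1.21 ± 0.16 (adjusted p = 7.12e-06). Calb2, the calcium-binding protein calretinin, was lower by a difference of -5.09 ± 0.16 (adjusted p = 1.20e-13). Sema7a, a semaphorin, was higher by 1.11 ± 0.15. Cntn4 (0.24) and Efna5 (0.06) did not pass. For odor in GFP+ cells 1 of the 10 passed, Camk2n1, which codes for an inhibitor of a calmodulin-dependent kinase. Its mean was 8.76 in odor and 5.95 in vehicle GFP+ cells, above the floor on 4 of 4 and 1 of 4 arrays. The odor mean lay within the range of the negative controls' 95th percentile on odor GFP+ arrays, 8.53 to 9.47. The difference was 2.81 ± 0.35 (SE, limma, adjusted p = 0.00268), and it did not pass when only the GFP+ arrays were fitted (adjusted p = 0.227). The other alternatives kept it below 0.05.

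Cell types other than neurons differed strongly between the fractions. The 11 immune markers were all lower in GFP+ cells, with a mean log2 of 4.67 to 5.47 on GFP+ and 10.94 to 13.02 on GFP- arrays. All 6 microvillous cell markers (Il25 and Chat under the floor on all 16 arrays), 5 of 8 sustentacular and 5 of 8 immature neuron markers were lower too. Of 10 mature neuron markers 2 were higher and 0 lower, and their mean log2 was 16.17 to 16.78 on GFP+ and 16.04 to 16.55 on GFP- arrays. Apart from Cngb1, under the floor on all 16 arrays, mature neuron markers lay above the floor on all arrays of both fractions, and the part of the other cell types in the gaps of S100a5, Lrrc3b, Pcp4l1 and Cidea was not tested.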

How the data were processed

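Labels give 24 mice in 8 pools of 3, and groups and pool numbers came from sample titles. The authors deposited log2 signals per probe set. The submitters' processing notes name Affymetrix Expression Console, with no version, summarisation method or build given in the sources used here. Of 28846 probe sets, 6640 controls were left out. All 19572 named probe sets matched the reference gene table of GRCm38.p6, and a gene with several was represented by that of highest mean. No 2 arrays were identical (highest correlation 0.992).

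Tests used limma 3.58.1 in R 4.3.3 with 4 group means over 16 arrays (12 residual degrees of freedom) and Benjamini-Hochberg adjustment over 22206 probe sets, calling adjusted p below 0.05. They recovered known changes when tested on simulated data. Pool differences had exact permutation tests (Python 3.11.15, SciPy 1.17.1). The p-values measure the spread between pools.

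Where all arrays of the dimmer fraction lay under their floor, the fold is a bound: the brighter mean over the dimmer mean after arrays under their floor were raised to it. Genes were named as the 7 members, per list up to 4 that passed and 2 that did not with the largest differences, 8 nearest to S100a5, and neighbours. S100a3, S100a13, S100b, Rasgrp2, Rasgrp3, Eif2s3y, Uty and Kdm5d were named after their values were seen. The members and lists were chosen with earlier results of these data known.

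Fractions of a pool share mice by the labels; over all probe sets, the correlation of their deviations from group means ranged from 0.0136 to 0.425 over the 8 pools. By the labels, odor and vehicle pools share only numbers. In its values, Eif2s3y split pools 1 and 3 from pools 2 and 4 in both treatments. Alternatives were quantile normalization, centring, filters on low values, other priors and weights, pool or number as a block, and each pool left out.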

Additional observations from a re-analysis of the deposited data

Results flagged for a closer look

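In each gene and group of 4 pools, the gap of the highest or lowest pool to its neighbour was set against the range of the 4. Of 42 sets checked, 2 had a pool that stood apart beyond Dixon's 95% critical value, and chance gives about 1 in 20. The GFP+ to GFP- difference of S100a5 in odor was 1.27 in pool 3 against 1.69 to 1.75 in pools 1, 2 and 4 (ratio 0.889). Pool 3 was also the lowest odor pool in S100a5 in both fractions, at 16.17 and 14.89. Mustn1 in vehicle GFP- cells was 4.05 in pool 1 against 4.46 to 4.52 in the others (ratio 0.88), all under background.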

How the results depend on the processing

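S100a5, Lrrc3b, Pcp4l1 and Cidea stayed higher in GFP+ cells and past the threshold in both treatments under every alternative run. Centring arrays raised the genes called over both treatments from 4 to 7, where 74.7% of all probe sets were called and 65.0% were called higher. It raised the genes with sign-flip p below 0.05 from 4 to 7, a test that was not run over all probe sets. With the pool or the number as a replicate block 4 genes were called, and the blocks changed no call among the 7; the Lrrc3b error fell from 0.31 to 0.12 with the pool as a fixed block. Centring called Rasgrp4 (1.11) and Mustn1 (0.72) in vehicle, where 40.5% of all probe sets were called higher. It called H2bc21 (0.57) in odor, where 38.4% were. H2bc21 in vehicle was -0.0085 under quantile normalization. Leaving out 1 pool gave ranges that crossed 0 for H2bc21 in vehicle (-0.016 to 0.20) and Mustn1 in odor (-0.021 to 0.21). For odor against vehicle they did in GFP+ cells for Pcp4l1 (-0.39 to 0.22) and H2bc21 (-0.035 to 0.23), and in GFP- cells for S100a5 (-0.091 to 0.26), Cidea (-0.15 to 0.11), Rasgrp4 (-0.023 to 0.26) and H2bc21 (-0.17 to 0.087). Odor ranges that kept their sign in GFP+ cells were -0.82 to -0.093 for Rasgrp4, -0.74 to -0.17 for Lrrc3b, 0.20 to 0.51 for S100a5 and 0.20 to 0.50 for Cidea. Mustn1, under background, kept its sign too (0.069 to 0.28). In GFP- cells they were -1.07 to -0.45 for Lrrc3b, -0.71 to -0.13 for Pcp4l1 and 0.22 to 0.64 for Mustn1. None of these odor differences passed. The sign-flip test also gave p below 0.05 for Mustn1 under quantile normalization (0.0156) and without odor pool 3 or 4 (0.0469), for H2bc21 without vehicle pool 3 (0.0156) and for Rasgrp4 without vehicle pool 4 (exact p = 0.0469). The causes were not tested. Over all probe sets, the alternatives called 2487 to 10736 in vehicle (3484 as reported), 2376 to 10258 in odor (3299), 4832 to 16577 over both treatments (5853), 1 to 5 for odor in GFP+ cells (2), 0 to 1 in GFP- cells (0) and 0 to 3 for the change (2). Centring turned the split in vehicle from 1295 higher and 2189 lower to 8986 and 1750.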
